A study of Mus musculus with 3 samples.

Results

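The acute phase genes examined here are the 9 listed genes Saa1, Saa2, Saa3, Hp, Orm1, Fgb, Hpx, Itih4 and Apcs, taken from a list of names that was drawn up with earlier results of these data known. All 9 had a column in both tables of molecules per cell, out of 23860 genes listed in at least 1 of the tables. Single cells of mouse liver were captured with the BD Rhapsody system, which tags each captured mRNA molecule with a unique molecular identifier (UMI), and were sequenced as 1 library per diet. The methods describe non-parenchymal cells (NPCs) from collagenase-perfused livers, whereas an extraction label names primary parenchymal cells. One library, called the NCD library here, was taken as wild-type (WT) mice on the normal chow diet for 16 weeks. It was matched by elimination to the sample titled MCD, and its header names another experiment. No label names the normal chow diet for it. MCD is also the study's short form for a methionine-choline deficient diet, so the diet of this library is not certain. The other library, called the HFHC pool, holds WT and Chi3l1-/- mice fed the high-fat, high-cholesterol diet for 16 weeks. Chi3l1-/- mice carry a constitutive knockout of a secreted chitinase-like protein. No genotype is assigned here to the cells of the pool. The mice were of C57BL/6J background and most experiments of the study used males, while the age of the mice and the number behind each library are not given in the sources used here. Diet, genotype and capture therefore cannot be told apart, and with 1 library per group no test between libraries was possible. All intervals below are exact Poisson 95% intervals for summed UMIs or exact binomial 95% intervals for shares of cells, and they cover counting error only.

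Acute phase proteins are plasma proteins that the liver secretes in larger or smaller amounts during inflammation, infection or injury. Hepatocytes make most of them, after interleukin 6 and interleukin 1 from macrophages and other cells act through STAT3, NF-kB and C/EBP factors on their promoters. Serum amyloid A1 and A2 travel on high-density lipoprotein and are the classical strongly induced pair of the mouse, while Saa3 is also made outside hepatocytes, by macrophages and adipose tissue among others. Haptoglobin and hemopexin bind free hemoglobin and heme, orosomucoid 1 is a lipocalin that carries small molecules, Fgb is the beta chain of fibrinogen, Itih4 belongs to the inter-alpha-trypsin inhibitor family, and Apcs, serum amyloid P component, is a pentraxin of the mouse acute phase.

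Saa1, Saa2 and Saa3 lie close together on mouse chromosome 7 (GRCm38), with 8809 bases between Saa1 and Saa2 and 24796 between Saa3 and Saa1. Their promoters are shown because these 3 genes differed in the same direction between the libraries. Each line runs 5′ to 3′ on the gene's own strand from 250 bases before to 50 bases after the RefSeq start site (GRCm38.p6), and capitals mark matches on either strand to 1 of 3 short motifs, TTNNGCAA for C/EBP factors, TTCNNNGAA for STAT factors and GGGNNTTTC for NF-kB, none of which overlapped another in these promoters.
Saa1, chr7:46742931-46743230, minus strand: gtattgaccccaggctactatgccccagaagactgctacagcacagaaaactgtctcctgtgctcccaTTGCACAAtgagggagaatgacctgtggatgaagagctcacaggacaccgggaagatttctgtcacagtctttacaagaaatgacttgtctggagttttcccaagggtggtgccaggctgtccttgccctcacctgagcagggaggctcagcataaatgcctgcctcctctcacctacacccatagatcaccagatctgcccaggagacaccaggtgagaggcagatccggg
Saa2, chr7:46751583-46751882, plus strand: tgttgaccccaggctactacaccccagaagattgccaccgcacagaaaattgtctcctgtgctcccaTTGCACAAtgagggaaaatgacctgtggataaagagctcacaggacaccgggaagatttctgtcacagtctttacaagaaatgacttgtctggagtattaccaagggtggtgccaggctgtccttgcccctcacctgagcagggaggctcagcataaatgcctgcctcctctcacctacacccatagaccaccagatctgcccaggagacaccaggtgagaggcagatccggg
Saa3, chr7:46715627-46715926, minus strand: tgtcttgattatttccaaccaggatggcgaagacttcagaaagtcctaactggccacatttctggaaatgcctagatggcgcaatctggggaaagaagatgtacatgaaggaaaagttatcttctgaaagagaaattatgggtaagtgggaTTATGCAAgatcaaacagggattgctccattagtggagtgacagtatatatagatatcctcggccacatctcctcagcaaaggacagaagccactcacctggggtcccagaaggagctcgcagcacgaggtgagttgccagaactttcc

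The Saa1 and Saa2 promoters were 95.3% identical over 301 aligned positions and carried the same match to the C/EBP letters, TTGCACAA, which began 182 and 183 bases upstream of the start site. The Saa3 promoter was 55.9% identical to that of Saa1 and carried TTATGCAA 99 bases upstream. Of all 32544 promoters of this length, 10.8% held a match to the C/EBP letters, 8.33% to the STAT letters and 4.35% to the NF-kB letters. Promoters were found for 7 of the 9 members, with no entry for Hp and Orm1. In the other 4, the C/EBP letters matched in Fgb (TTGCTCAA, 80 bases upstream) and Hpx (TTGCTGAA, 200 bases upstream), and the STAT letters in Fgb (TTCGAGGAA, 162 bases upstream), Itih4 (TTCCGAGAA, 51 bases upstream) and Apcs (TTCTAGGAA, 244 bases upstream). A match describes these letters only and was not tested as a binding site. Sequence sharing also bears on counting. In the transcripts of a related annotation release, 31.5% of the 50-base windows of Saa1 and 29.97% of those of Saa2 also occurred in other genes, each with the other of this pair as a partner, but within the last 300 bases of the transcripts these shares were 9.56% and 9.45%. For Saa3 the share was 3.57% overall and 11.1% within the last 300 bases, with windows that occurred in 245 other genes, Saa1 among them. For Orm1 the share was 20.4% overall and 58.6% within the last 300 bases, with Orm2 and Orm3 as partners, so that the split of reads among the Orm genes is uncertain. No annotated gene overlapped any member.

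In all, 53720863 UMIs were counted in 30734 cells of the NCD library and 71981673 UMIs in 21601 cells of the pool, of which 23346 and 19625 cells passed the filters. The libraries shared 756 cell barcodes. Kept cells had median depths of 1322.5 and 1622 UMIs. Clusters were named from marker genes, without the members or the other acute phase genes among the clustering genes, and a class name below means cells resembling that type. The 10 hepatocyte markers were all higher in the hepatocyte class than in the other classes of the same library, by log2 ratios of 5.19 to 5.67 with NCD and 3.94 to 4.38 with HFHC. This class held 4149 cells (17.8%) of the NCD library and 12478 cells (63.6%) of the pool. The naming rule did not treat shallow clusters alike. Cluster 5, with 2912 NCD and 68 pool cells, best matched hepatocytes but was left unnamed (median 376 UMIs). Cluster 4, with 16 NCD and 3134 pool cells, was named hepatocyte (median 425 UMIs). With cluster 5 counted, the class would hold 7061 and 12546 cells. Cells of the class as reported were shallow, with medians of 740 and 846 UMIs, against 4749 and 10242 for Kupffer cells (KCs), the resident macrophages of the liver. Mitochondrial UMIs made up a median of 2.03% (NCD) and 0.383% (HFHC) per hepatocyte, beside 5.95% and 1.11% over all kept cells. Markers of other cells in the hepatocyte class also differed. The 8 neutrophil markers summed to 671 and 42.5 CPM, with 8 of 8 higher in the NCD library, the 8 KC markers to 273 and 141 CPM, with 8 of 8 higher, the 10 monocyte markers to 184 and 109 CPM, with 7 of 10 higher, and the 9 MoMF markers to 83.0 and 66.3 CPM, with 4 of 9 higher. None of the markers in these 4 lists was at 0 in both libraries. The 7 endothelial markers summed to 286 and 169 CPM, with 7 of 7 higher in the NCD library. The sums of other lists went the other way. The 5 plasma cell markers summed to 79.5 and 426 CPM, with 1 of 5 higher in the NCD library. The 5 cholangiocyte markers summed to 13.1 and 42.4 CPM, with 2 of 5 higher in the NCD library and 2 at 0 in both. Nearly all of this last sum was Sox9, at 11.4 and 41.6 CPM. The 5 erythroid markers summed to 267 and 270 CPM, with 4 at least 2-fold higher in the pool. The part of mitochondrial share and of these markers in the ratios below was not tested. Clusters 0 and 6 held most hepatocytes of the NCD library, while clusters 3, 4, 6, 11 and 13 held most of those of the pool.

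Of the 9 members, Saa1, Saa2 and Saa3 were those that stood higher in hepatocytes of the HFHC pool. Saa1 gave 182 UMIs in hepatocytes of the NCD library, or 45.9 CPM (UMIs of the gene in each 1000000 UMIs of the class; interval 39.5 to 53.1), and 1990 UMIs, or 117 CPM (112 to 123), in the pool. Saa2 gave 48 UMIs (12.1 CPM, 8.93 to 16.1) and 1509 UMIs (88.9 CPM, 84.5 to 93.5). Saa3 gave 29 UMIs (7.32 CPM, 4.90 to 10.5) and 618 UMIs (36.4 CPM, 33.6 to 39.4). The intervals of the libraries did not overlap for any of the 3 genes, with the pool higher each time. Such non-overlap was not counted over all genes compared, so it does not set these genes apart. On the log2 scale with 1 UMI added, the ratio of the pool to the NCD library was 1.35 for Saa1, 2.85 for Saa2 and 2.27 for Saa3, which is 2.54-fold, 7.20-fold and 4.82-fold. Of the 9192 genes that reached 100 UMIs over the libraries, 6.54% were at least 2-fold higher in the pool, and these 3 were the members past that limit. Their ratios stood at percentiles 96.7, 99.6 and 99.1 of all genes compared.

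The other 6 members had ratios below 0, and 1 of them was past 2-fold. Apcs gave 107 UMIs (27.0 CPM, 22.1 to 32.6) in the NCD library and 212 UMIs (12.5 CPM, 10.9 to 14.3) in the pool, a log2 ratio of -1.12, and 6.58% of all genes compared were at least 2-fold lower in the pool. Orm1 stood at 604 CPM (580 to 628) and 328 CPM (319 to 337), a log2 ratio of -0.88. The heme scavenger gene Hpx stood at 451 CPM (430 to 473) and 307 CPM (299 to 315), with a log2 ratio of -0.56. The haptoglobin gene Hp stood at 372 CPM (353 to 392) and 301 CPM (293 to 310), a log2 ratio of -0.31. Itih4 stood at 129 CPM (118 to 141) and 99.3 CPM (94.6 to 104), a log2 ratio of -0.38. Fgb stood at 811 CPM (783 to 839) and 735 CPM (722 to 748), a log2 ratio of -0.14. The intervals of the libraries did not overlap for any of these 6 genes. As this was not counted over all genes compared, it says nothing particular about the members. The median over the 9 members was -0.31, beside 0.14 over all genes compared. The 9 genes together made up 0.246% (NCD) and 0.203% (HFHC) of hepatocyte UMIs, and Saa1, Saa2 and Saa3 alone 65.4 and 243 CPM.

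**Figure D1:**
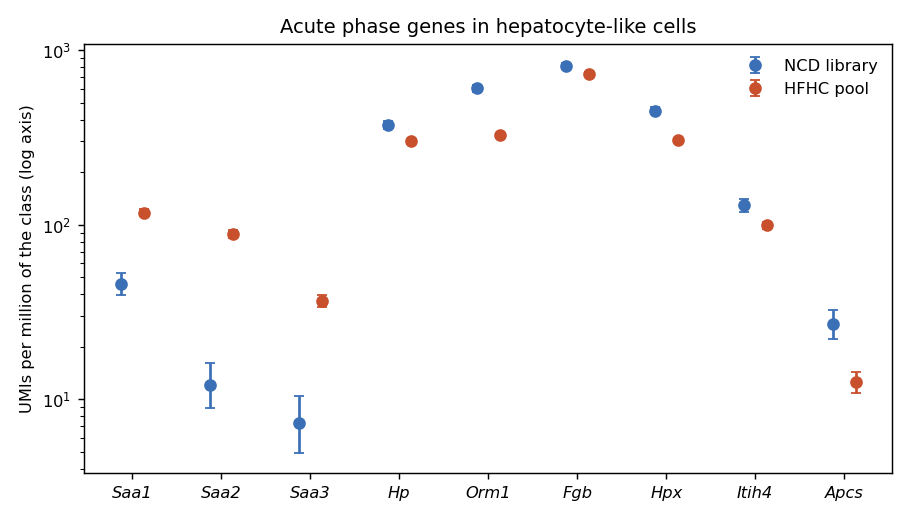
Level of each acute phase gene in hepatocyte-like cells of the NCD library (blue) and the HFHC pool (orange), in CPM on a log axis. Points are 1 library each and bars are exact Poisson 95% intervals. Saa1, Saa2 and Saa3 are higher in the pool, Apcs, Orm1, Hpx, Hp and Itih4 lower, and Fgb lies between 735 and 811 CPM.

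The direction of 4 members, Hp, Fgb, Hpx and Itih4, depended on which hepatocytes were compared. In cluster 0, with 2994 NCD and 920 pool cells, Saa1 was 49.4 and 320 CPM, Saa2 15.2 and 194 CPM, and Saa3 7.29 and 93.5 CPM. Hp was 422 and 633 CPM, Fgb 948 and 1511 CPM, Hpx 553 and 813 CPM and Itih4 150 and 182 CPM there, with the pool higher for each. In cluster 6, with 942 NCD and 1943 pool cells, Saa1 was 38.8 and 128 CPM, Hp 224 and 404 CPM, Fgb 382 and 833 CPM, Hpx 123 and 275 CPM and Itih4 68.8 and 155 CPM. The NCD side of Saa2 and Saa3 in cluster 6 rested on 2 and 7 UMIs. Orm1 was 685 CPM (656 to 716) and 672 CPM (637 to 709) in cluster 0, and 339 CPM (300.02 to 382) and 302 CPM (283 to 322) in cluster 6. Apcs was 28.2 CPM (22.5 to 34.8) and 24.7 CPM (18.4 to 32.6) in cluster 0, and 25.03 CPM (15.3 to 38.7) and 16.04 CPM (11.8 to 21.3) in cluster 6. The intervals of the libraries overlapped for both genes in both clusters, so that no difference beyond counting error was seen within a cluster. With clusters 0 and 6 alone, the ratios on the log2 scale were 2.11 for Saa1, 3.28 for Saa2 and 2.82 for Saa3, against 0.38 for Hp, 0.42 for Fgb, 0.09 for Hpx, 0.32 for Itih4, -0.44 for Orm1 and -0.49 for Apcs. These ratios sum the 2 clusters, whose shares of cells differed between the libraries, and can lie outside both within-cluster ratios. Hpx was 1.47-fold and 2.24-fold higher in the pool within clusters 0 and 6, against a summed log2 ratio of 0.09. Orm1 was 0.98-fold and 0.89-fold within them, against -0.44. In cluster 6, Fgb and Itih4 were 2.18-fold and 2.25-fold higher in the pool. The gene lists below use the same sum. Restriction to these clusters, chosen after the values were seen, turned the direction of 4 members and left no member 2-fold lower. Alb was 19985 and 20084 CPM in cluster 0 and 5902 and 9951 CPM in cluster 6, and Apoa1 was 2938 and 4410 CPM and 1792 and 2941 CPM. The part of cluster make-up, depth and free RNA in these ratios was not tested.

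**Figure D2:**
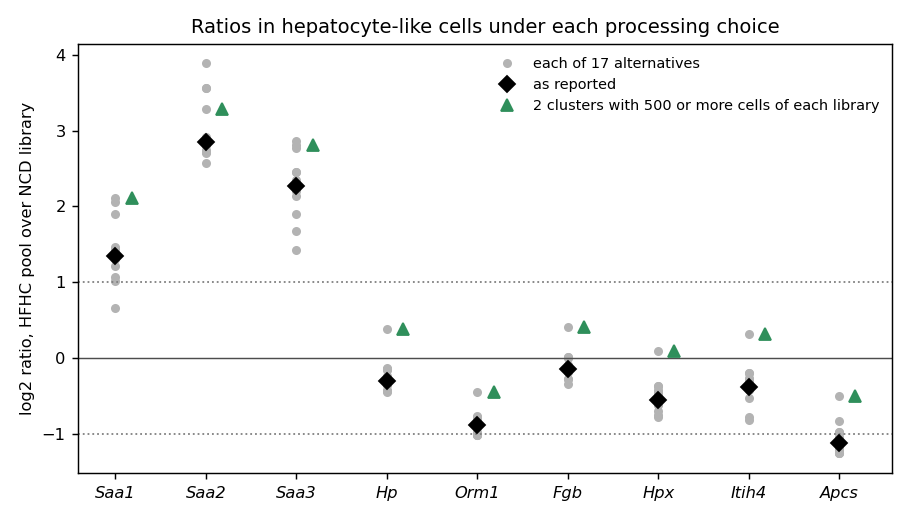
Log2 ratio of each acute phase gene in hepatocyte-like cells, HFHC pool over NCD library, as reported (black), under each of 17 alternative settings (grey) and in the 2 clusters with 500 or more cells of each library (green); dotted lines mark 2-fold. Saa2 and Saa3 lie above the upper line in every setting and Saa1 in 16 of 17, while Hp, Fgb, Hpx and Itih4 change sign in the green setting.

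Across the 7 hepatocyte clusters, the level in the pool ranged from 62.9 to 320 CPM for Saa1, from 49.6 to 194 CPM for Saa2 and from 14.3 to 93.5 CPM for Saa3, with the highest value in cluster 0 each time. Of these clusters, 5 held 107 or fewer NCD cells, with 0 NCD UMIs of Saa2 and Saa3 in all 5 and at most 1 of Saa1, so that no direction is read from them and the comparison within clusters rests on clusters 0 and 6.

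The serum amyloid transcripts were found in a small share of hepatocytes. Unthinned, a Saa1 UMI was seen in 134 of 4149 NCD hepatocytes and 909 of 12478 pool hepatocytes. With each cell thinned to 500 UMIs, which left out 1136 and 3197 shallower cells, Saa1 was seen in 1.76% of NCD cells (1.32 to 2.29) and 3.63% of pool cells (3.26 to 4.03). Saa2 was seen in 0.266% (0.115 to 0.522) and 2.61% (2.29 to 2.95), and Saa3 in 0.332% (0.159 to 0.610) and 1.13% (0.926 to 1.37). The intervals of the libraries did not overlap for these genes, and non-overlap was not counted over all genes. T cells, which should lack these genes, gave 0.0348% and 0.116% for Saa1, from 1 of 2874 and 3 of 2579 cells at the same depth, where their unthinned medians were 1816.5 and 3406 UMIs. Endothelial cells gave more in the pool, with 0.0765% (NCD) and 1.21% (pool) for Saa1. Saa2 and Saa3 were seen in 1.06% and 0.303% of the pool's endothelial cells, and in 0 of 2613 with NCD. Fgb was seen in 29.0% and 25.1% of thinned hepatocytes, Orm1 in 24.96% and 14.3%, Hpx in 17.8% and 12.3%, Hp in 15.3% and 13.1% and Itih4 in 5.41% and 4.33%. Apcs was seen in fewer cells than Saa1, in 1.23% and 0.539%. The levels of these genes differed too. In the pool, Saa1 and Itih4, seen in 3.63% and 4.33% of cells, stood at 117 and 99.3 CPM, and Fgb at 735 CPM.

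A few cells carried much of the signal. In the pool, 187 hepatocytes (1.499%) had 5 or more UMIs of Saa1, Saa2 and Saa3 together, with a median depth of 2845 UMIs, and they held 1026 of the 1990 Saa1 UMIs, 931 of the 1509 Saa2 UMIs and 376 of the 618 Saa3 UMIs. In the NCD library 6 hepatocytes (0.145%) met this limit and held 35 of 182, 37 of 48 and 8 of 29. For comparison, 50% of the pool's UMIs lay in 144 cells for Saa1, 89 for Saa2 and 59 for Saa3. The number was 874 for Fgb (12475 UMIs), 831 for Orm1 (5565 UMIs), 440 for Itih4 (1686 UMIs) and 79 for Apcs (212 UMIs). It also depends on the total UMIs of a gene. Those 187 cells, which were chosen for their Saa counts, were set beside the 11127 pool hepatocytes with no Saa UMI, whose median depth was 792 UMIs. All other members were higher in the 187 cells. Orm1 was 786 and 292 CPM, Apcs 37.1 and 10.4, Hp 567 and 268, Hpx 595 and 271, Fgb 1167.5 and 665 and Itih4 152 and 92.7 CPM. The negative acute phase gene Apoa1 was also higher, at 2508 and 1700 CPM, while Alb was 11473 and 11385 CPM. The part of depth in these levels was not tested. Taking out all cells with 5 or more such UMIs left log2 ratios of 0.67 for Saa1, 3.55 for Saa2 and 1.43 for Saa3, so that Saa1 was then under 2-fold. Because these cells were removed by the measured Saa counts themselves, 187 in the pool and 6 in the NCD library, the values describe how the UMIs were distributed and do not check the difference between libraries. The mouse and the genotype of the 187 cells are unknown.

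**Figure D3:**
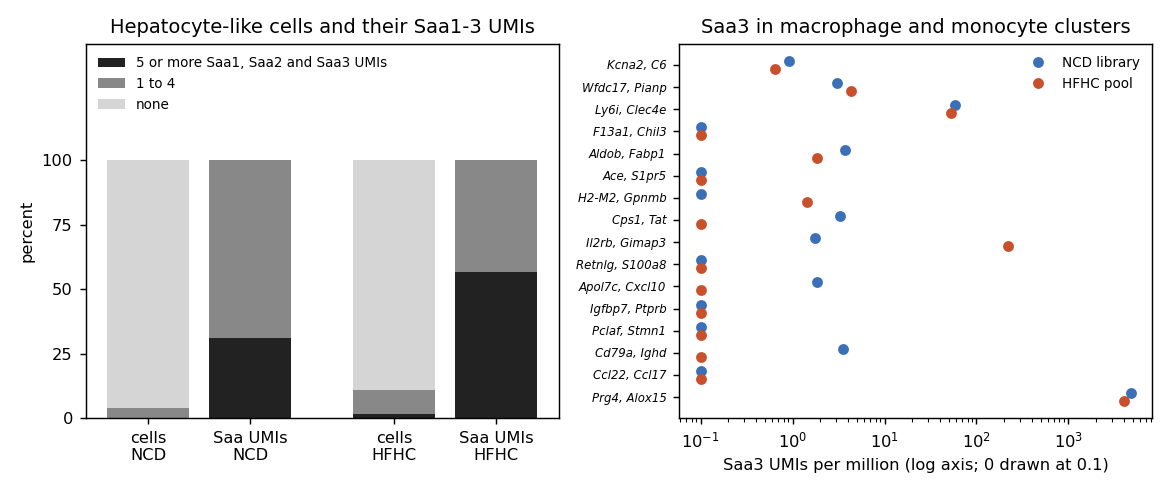
Left, percent of hepatocyte-like cells of each library, and percent of their Saa1, Saa2 and Saa3 UMIs, by the number of such UMIs in a cell: in the HFHC pool 1.499% of cells had 5 or more. Right, Saa3 level in each cluster of the second clustering of macrophages and monocytes, labelled by its 2 leading genes, in CPM on a log axis with values of 0 drawn at 0.1: the cluster led by Prg4 and Alox15 stands at 4786 CPM (NCD library) and 4062 CPM (HFHC pool).

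Across single hepatocytes with at least 2000 UMIs, each thinned to 2000, rho was low for most pairs of members. Over the 36 pairs, the median of Spearman's rho was 0.09 in both libraries, across 304 NCD and 2236 pool cells that share a library and a range of depth. The highest value in each library was between Saa1 and Saa2 in the pool, 0.48, where 125 of the 206 cells with a Saa2 UMI also had one of Saa1, and between Saa2 and Saa3 in the NCD library, 0.41, where 3 and 2 cells had a UMI of these genes and 1 cell had both. In the pool Saa2 and Saa3 gave 0.31, and Saa1 and Saa3 0.29. In the NCD library the next values were 0.30 for Fgb and Itih4, 0.29 for Fgb and Hpx and 0.26 for Hp and Orm1, while Saa1 gave 0.13 with Saa2 and 0.17 with Saa3. Apart from these genes, Hsph1, Trim2, Hpx, Orm1 and Leap2 were most like the sum of Saa1 and Saa2, among 2316 genes compared, with mean rho over the libraries of only 0.11 to 0.12. Hpx (0.11 in both) and Orm1 (0.08 and 0.15) were members themselves. For Hsph1, Trim2 and Leap2 rho was 0.23, 0.22 and 0.20 in the 304 NCD cells but 0.02, 0.01 and 0.02 in the 2236 pool cells, so that these 3 ranked through the NCD cells.

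Hepatocytes differ along the liver lobule, from the portal side, where blood enters, to the central vein. Cells with at least 5 UMIs of zonal marker genes were divided into 3 equal ranges of the pericentral share of these UMIs. Hpx was highest on the periportal side in both libraries, at 535 CPM (508 to 563) against 98.1 CPM (72.3 to 130) at the pericentral end of the NCD library, and 355 CPM (342 to 368) against 257 CPM (240 to 275) in the pool. Orm1 went from 677 to 288 CPM in the NCD library, but stood at 332 and 314 CPM in the pool, where the intervals overlapped. Hp went from 397 to 215 CPM in the NCD library and the other way, from 288 to 391 CPM, in the pool. Itih4 showed the same opposite directions, with 144.7 and 79.7 CPM in the NCD library and 94.2 and 142 CPM in the pool. Fgb went from 907 to 405 CPM in the NCD library, but stood at 778 and 779 CPM at the ends in the pool, with 624 CPM in the middle. The intervals of Saa1 overlapped between the ends, at 49.1 and 51.1 CPM in the NCD library and 121 and 114 CPM in the pool. The middle range of the NCD library, with 7 Saa1 UMIs in 340 cells, was lower, at 16.97 CPM (6.82 to 35.0), than the periportal range (41.1 to 58.2), but its interval overlapped that of the pericentral range (33.1 to 75.4). In the pool Saa2 went from 100.3 to 65.2 CPM and Saa3 from 42.6 to 26.1 CPM. In the NCD library Saa2 was 16.7 and 4.09 CPM (45 and 2 UMIs), and Saa3 was 7.81 CPM (4.84 to 11.9) and 12.3 CPM (4.50 to 26.7), with overlapping intervals. The Apcs intervals overlapped between the ends in both libraries, at 28.6 and 22.5 CPM with NCD and 10.7 and 14.3 CPM in the pool. These are ranges and not cell types: 212 of 3335 NCD cells and 1358 of 9213 pool cells lay within 5 percentage points of a limit. Directions in the pool also differed between these ranges and the clusters. Cluster 0 had the periportal marker Cyp2f2 among its leading genes, and cluster 6 the pericentral marker Cyp2e1. In the pool, Hp was 633 and 404 CPM in them, Fgb 1511 and 833, Orm1 672 and 302, and Itih4 182 and 155 (overlapping intervals). The part of the other clusters, which held few NCD cells, was not tested.

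The other genes of the acute phase response had no common direction that held across the choice of clusters. Of 25 other positive acute phase genes, 23 had enough UMIs, and 1 was at least 2-fold higher and 6 at least 2-fold lower in pool hepatocytes, with a median log2 ratio of -0.58, beside 6.54% and 6.58% of all genes. In clusters 0 and 6 alone, a restriction applied to the lists after their values were seen, 1 was at least 2-fold higher and 1 at least 2-fold lower, beside 6.47% and 6.11% of all genes, with a median of 0.05 beside 0.07 over all genes. Only Orm2 and Hamp stayed past 2-fold there, so the lower levels below are those of the whole class. The 1 higher was Orm2, a close relative of Orm1, at 5.05 and 10.96 CPM (20 and 186 UMIs). In the whole class, the 6 lower included Hamp, which encodes the iron hormone hepcidin, at 980 and 80.6 CPM, a log2 ratio of -3.60. Serpina3k, a serine protease inhibitor, was 2565 and 742 CPM, ceruloplasmin (Cp) 340 and 128 CPM, and the alpha chain of fibrinogen (Fga) 986 and 440 CPM. The other two were prothrombin (F2) and the lectin Mbl2, at 245 and 97.2 CPM and at 367 and 168 CPM. The gamma chain, Fgg, was 593 and 396 CPM. Saa4, a constitutive serum amyloid gene, was 113 and 105 CPM, with a log2 ratio of -0.11. Crp, which is only a weak acute phase gene in mice, was 115 and 73.1 CPM, the complement gene C3 344 and 198 CPM, and Lcn2 17.9 and 15.9 CPM.

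Of 13 negative acute phase genes, whose products normally become scarcer during inflammation, 13 had enough UMIs, and 4 were at least 2-fold lower and 1 at least 2-fold higher in the pool, beside 6.58% and 6.54% of all genes, with a median log2 ratio of -0.78. In clusters 0 and 6 alone these numbers were 1 lower (Ahsg) and 2 higher (Fetub and Serpina6), beside 6.11% and 6.47% of all genes, with a median of -0.19. The 4 of the whole class were Ahsg (fetuin A), at 2485 and 856 CPM, the thyroid hormone carrier Ttr, at 4422 and 1955 CPM, the retinol carrier Rbp4, at 2909 and 1404 CPM, and transferrin (Trf), at 1797 and 893 CPM. The 1 higher was Fetub, at 48.9 and 110 CPM. Alb was 16698 and 11553 CPM in the whole class, but 19985 and 20084 CPM in cluster 0 and 5902 and 9951 CPM in cluster 6.

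Among 6 receptor genes for the inducing cytokines, 5 had enough UMIs, and 3 were at least 2-fold lower in pool hepatocytes, beside 6.58% of all genes, or 2 in clusters 0 and 6 alone, beside 6.11%. The 3 were Il6ra at 31.3 and 11.2 CPM, its signalling partner Il6st at 56.3 and 20.03 CPM, and Il1rap at 31.3 and 13.9 CPM. KCs carried more Il6ra, at 414 and 247 CPM. In the hepatocyte class the neutrophil, KC and monocyte marker sums given above were lower in the pool as well, and their part in these receptor levels was not tested. Of 7 genes for receptors of the members' products, 4 had enough UMIs, and 2 were at least 2-fold lower: Cd163, a macrophage gene, at 19.7 and 3.77 CPM, and the leukocyte integrin gene Itgb2, at 47.9 and 21.1 CPM. In clusters 0 and 6 alone 2 of the 4 were again past that limit. Of 9 inducing cytokine genes, only Il1b had enough UMIs, at 57.8 and 20.5 CPM. Of 12 regulators, 11 had enough UMIs, with 2 at least 2-fold higher and 2 at least 2-fold lower, beside 6.54% and 6.58% of all genes. In clusters 0 and 6 alone the counts were also 2 and 2, beside 6.47% and 6.11%. The C/EBP factor genes went both ways: Cebpa was 204 and 543 CPM, Cebpb 502 and 89.4 CPM and Cebpd 22.2 and 6.42 CPM. Cebpb was also lower in KCs of the pool, at 1233 and 373 CPM, and in neutrophils, at 2538 and 1372 CPM. Stat3 was 96.1 and 158 CPM, and Socs3, a target of STAT3, 7.06 and 4.89 CPM.

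**Figure D4:**
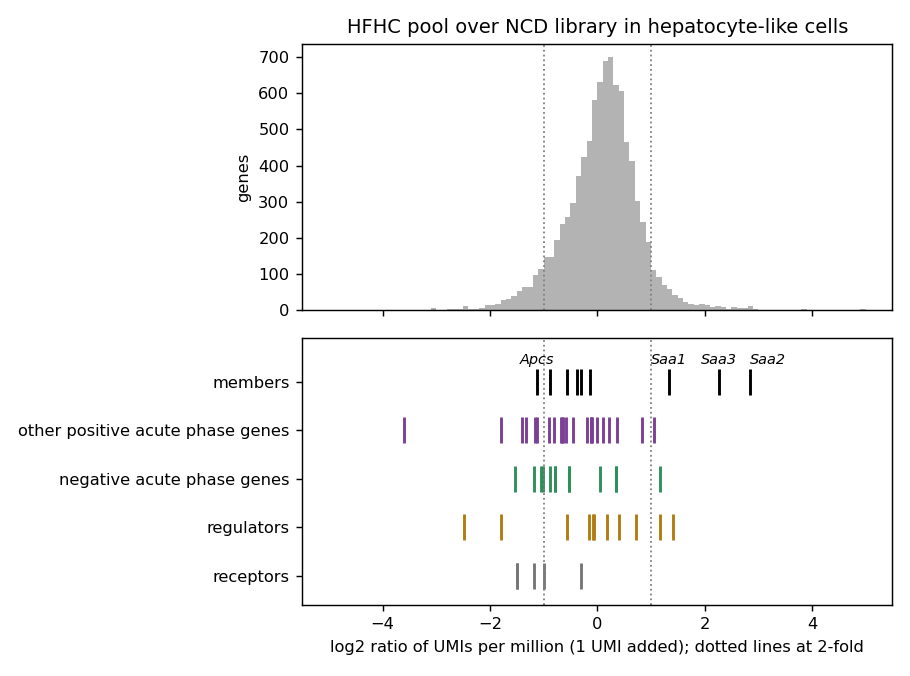
Log2 ratio between the libraries, HFHC pool over NCD, in hepatocyte-like cells, for all 9192 genes compared (top, number of genes per bin, values beyond 5 drawn at 5) and for each gene of the members, the acute phase lists, the regulators and the receptors (bottom, 1 tick per gene). The 3 Saa genes lie right of the 2-fold line at 1, while Apcs and 6 other positive acute phase genes lie left of the line at -1.

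Outside hepatocytes, each member was compared with the level that free hepatocyte RNA would give, scaled by 8 hepatocyte genes (Alb, Apoa1, Apoa2, Apoc3, Ttr, Fabp1, Ahsg and Serpina1c) in the same class and library. Most members stayed near that level: over the 13 other classes, the median was 12.2 and 12.1 CPM for Orm1, 17.3 and 19.4 CPM for Fgb and 8.47 and 14.8 CPM for Hpx in the NCD library and the pool. In KCs, Fgb, Hpx and Itih4 stood at 1.95, 1.99 and 1.98 times the free-RNA level in the NCD library and at 1.84, 3.83 and 2.90 times in the pool, each with an interval above 1. Ratios of this size were thus seen for 3 genes together in 1 class, and ratios up to 4 are not read here as expression. Higher ratios with an interval above 1 were found for Hpx in basophils or mast cells of the pool (4 UMIs), for Orm1 and Itih4 in its 11 stellate cells or fibroblasts (3 and 2 UMIs), for Saa2 in monocytes and MoMFs of the NCD library (3 UMIs), and for Hp, Saa3 and Apcs. Only these last 3 genes rested on more than 4 UMIs, except Saa3 in type 1 dendritic cells (3 UMIs).

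Hp was well above this level in myeloid cells. Neutrophils held 3044 Hp UMIs in the NCD library (831 CPM) and 523 in the pool (605 CPM), which is 62.6 times (60.4 to 64.8) and 23.0 times (21.0 to 25.01) the free-RNA level. A UMI was seen in 55.2% of 3234 and 58.4% of 351 neutrophils, against 2.14% and 3.37% of T cells, at median depths of 1020.5 and 2148 UMIs for neutrophils. Monocytes and monocyte-derived macrophages (MoMFs) together held 270 UMIs (143 CPM) and 961 UMIs (210 CPM), 24.7 times (21.9 to 27.9) and 50.1 times (46.9 to 53.3) the free-RNA level, and 42.02 and 113 times with the other gene order described for Saa3. Within this class, the monocyte cluster led by F13a1 and Chil3 stood at 241 and 389 CPM. The CPM of Hp in neutrophils exceeded that in hepatocytes, and neutrophils held 52.6% of the Hp UMIs of the NCD library but 7.08% of those of the pool, where hepatocytes held 69.2%. KCs, at 11.5 and 8.94 CPM, were 1.91 and 2.36 times above the free-RNA level. Haptoglobin is a known component of neutrophil granules. Cd163, the macrophage receptor that takes up haptoglobin bound to hemoglobin, stood at 957 CPM in KCs of the NCD library and 503 CPM in those of the pool, against 33.3 and 1.31 CPM in monocytes and MoMFs.

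Saa3 in KCs was close to the limit of detection. The NCD library had 15 UMIs in 10 of 2559 KCs (1.15 CPM, 0.641 to 1.89), which is 9.72 times (5.44 to 16.03) the free-RNA level of 1.54 UMIs. That level counts hepatocyte RNA only. Hepatocytes held 29 of the 464 Saa3 UMIs of kept NCD cells, and 10 cells rich in Prg4, described below, held 346. Saa3 RNA freed from such cells is left out, so the NCD ratio is not read as expression in KCs. The pool had 3 UMIs in 386 KCs (0.838 CPM, 0.173 to 2.45), which is 1.83 times (0.377 to 5.34) a free-RNA level of 1.64 UMIs and not distinguishable from it at this depth. Levels of the libraries overlapped. With a mitochondrial limit of 10% the counts were 6 and 0 UMIs and the NCD ratio 4.71. At clustering resolutions of 0.3 and 1.0, where macrophages were not clustered again, the KCs of the pool held 44 and 45 UMIs, or 16.5 and 14.5 times the free-RNA level, so that the value in the pool depends on the clustering.

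Saa3 in monocytes and MoMFs was higher and lay almost wholly in 1 cluster. The class held 40 UMIs (21.2 CPM, 186 times the free-RNA level) in the NCD library and 117 UMIs (25.6 CPM, 50.4 times) in the pool. The level of the class depended on the clustering: with genes sorted in another order beforehand, an alternative added after the values were seen, the class held 337 and 335 cells in place of 529 and 705, with 357 Saa3 UMIs (319 CPM) and 160 UMIs (83.0 CPM). It then included 13 cells rich in Prg4, without which it held 11 UMIs (10.5 CPM) and 48 UMIs (25.3 CPM). Most cells that left the class, 191 of 202 and 354 of 374, were then named type 2 dendritic cells (cDC2). The cells that left held 29 of the 40 NCD and 69 of the 117 pool Saa3 UMIs. The second clustering allowed only the names KC, monocyte and MoMF, so that MoMFs were not told apart from cDC2 there. At a resolution of 1.0, a cluster with Ly6i and Itgax among its leading genes was named cDC2. As clustered here, all 40 NCD UMIs and 116 pool UMIs were in the MoMF cluster led by Ly6i, Clec4e and Itgax, at 58.6 and 53.0 CPM. There they lay in 13 of 156 and 33 of 321 cells, with up to 10 and 22 UMIs in 1 cell. Cells with 5 or more Saa3 UMIs, 4 and 7 in number, held 67.5% and 59.5% of them. The monocyte cluster led by F13a1 and Chil3 had 0 Saa3 UMIs in 195 NCD cells and 234 pool cells, which allows shares of cells with a UMI of up to 1.54% and 1.28%. Neutrophils had 10 and 11 Saa3 UMIs, in 5 and 2 cells, which is 10.5 times (5.01 to 19.2) and 3.99 times (1.99 to 7.15) the free-RNA level, the latter within the ratios not read here as expression. Type 1 dendritic cells (cDC1) had 3 UMIs in each library, 11.99 times (2.47 to 35.0) and 1.22 times (0.251 to 3.56) that level. In the NCD library the free-RNA level again leaves out Saa3 RNA freed from cells other than hepatocytes. The NCD ratios of neutrophils and cDC1 are therefore not read as expression either. The ratio of 186 for NCD monocytes and MoMFs has the same limit.

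The highest Saa3 level was in 13 cells that formed an unnamed cluster of the second clustering, led by Prg4, Alox15, Saa3, Slpi and F5. Saa3 was not among the clustering genes, and these cells were noticed after their values were seen. They did not form a cluster of their own with genes sorted in the other order, where all 13 lay in a macrophage cluster of 418 cells. Prg4 encodes the lubricating proteoglycan lubricin, Alox15 a lipoxygenase, Slpi a secreted protease inhibitor and F5 coagulation factor V. The 10 NCD cells held 0, 4, 8, 8, 13, 15, 52, 65, 78 and 103 Saa3 UMIs, and the 3 pool cells 30, 40 and 42, which gives 4786 and 4062 CPM. Every one of the 13 cells had UMIs of Prg4 and of the macrophage gene Adgre1, and 10 had UMIs of Timd4, a receptor of resident macrophages. The KC marker Clec4f was at 0 in all 13, and Alb was at most 3 UMIs. These cells held 346 of the 464 Saa3 UMIs of kept NCD cells and 112 of the 957 of the pool. One further NCD cell with 4246 genes, above the upper limit of the filter, held 403 Saa3 UMIs of 19581, which is 46.0% of the 877 Saa3 UMIs of that library, with only 2 UMIs of Prg4. In the pool, 1 removed cell held 72 Saa3 UMIs beside 206 of Prg4. An unnamed cluster of 16 pool cells led by Il2rb owed its 25 Saa3 UMIs to a single cell. Across the 28 points that 14 classes gave in the libraries, the genes whose log2 level was most like that of Saa3 were F10, F7, Vnn3, Tmem38b and Tiam2, with Pearson's r of 0.87 down to 0.75. These points share libraries, depth and free RNA. F10 and F7 encode coagulation factors that both hepatocytes and macrophages can make.

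Apcs stood above the free-RNA level in cholangiocytes, the cells that line bile ducts. The NCD library had 24 UMIs in 15 of 80 cells (68.8 CPM, 44.1 to 102) and the pool 13 UMIs in 8 of 27 cells (65.9 CPM, 35.1 to 113), which is 11.5 times (7.35 to 17.1) and 11.6 times (6.16 to 19.8) the free-RNA level. With free RNA set from Alb alone, an alternative added after the values were seen, the ratios were 6.76 (4.33 to 10.1) and 4.94 (2.63 to 8.45). These values exceeded the 27.0 and 12.5 CPM of hepatocytes. No other class had an Apcs interval wholly above the free-RNA level. The median depth was 4189.5 and 7504 UMIs per cholangiocyte. These cells also carried Alb at 6294 and 12321 CPM, beside 16698 and 11553 CPM in hepatocytes. Alb was thus higher in the 27 pool cholangiocytes than in pool hepatocytes. Whether it was free RNA there, as the scaling takes it to be, was not tested. The part of Alb in the Apcs level was not tested beyond the scaling above. Hp, with a higher CPM than Apcs in hepatocytes, stood at 0.416 times (0.215 to 0.727) and 0.0739 times (0.00894 to 0.267) the free-RNA level in the same cells. Saa1 and Saa2, in contrast, were at 0 UMIs in the cholangiocytes of both libraries.

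**Figure D5:**
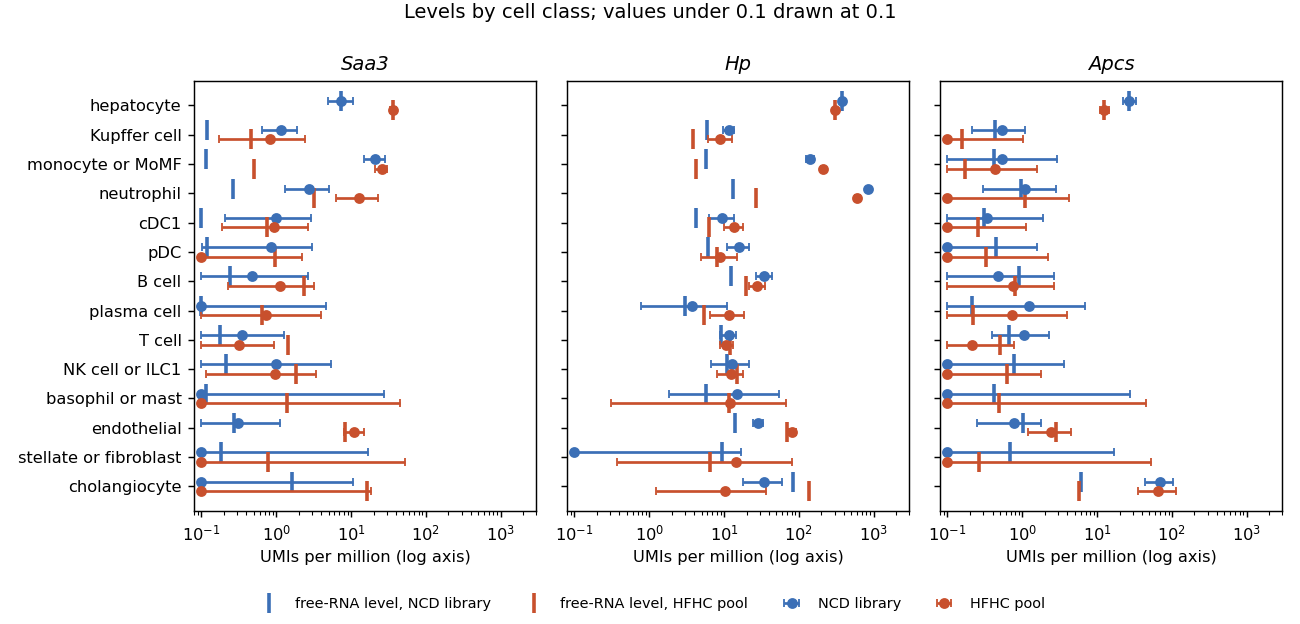
Level of Saa3, Hp and Apcs in each cell class of the NCD library (blue) and the HFHC pool (orange), in CPM on a log axis with values under 0.1 drawn at 0.1. Points are 1 library each, bars exact Poisson 95% intervals, and vertical ticks the level that free hepatocyte RNA would give. Hp in neutrophils and in monocytes or MoMFs, Saa3 in monocytes or MoMFs and Apcs in cholangiocytes lie right of their ticks.

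Cytokines that induce the response were measured in other classes. Il1b was at 2965 CPM in neutrophils of the NCD library and 13661 CPM in those of the pool, and at 276 and 286 CPM in KCs. Il6 was at 10.6 and 17.3 CPM in KCs, at 344 and 389 CPM in the class of basophils or mast cells, with 74 and 17 cells, and at 0.252 and 0.295 CPM in hepatocytes. Tnf was at 12.3 and 64.2 CPM in KCs, and Osm, which acts through the same signalling partner as Il6, at 14.3 and 55.3 CPM in monocytes and MoMFs. Among the receptors for the member proteins, Fpr2, which binds serum amyloid A, was at 1053 and 724 CPM in neutrophils and 336 and 150 CPM in KCs. Scarb1, a receptor for high-density lipoprotein, was at 337 and 289 CPM in KCs, 202 and 133 CPM in endothelial cells and 47.4 and 61.8 CPM in hepatocytes.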

How the data were processed

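Single liver cells of 2 BD Rhapsody libraries were analysed, 1 mapped to the NCD and 1 HFHC pool. The deposited counts were made by the authors, per the file headers, with the BD Rhapsody WTA Analysis Pipeline 1.10.1 on GRCm38 with GENCODE release M19, as molecules (UMIs) per called cell and gene after error correction, with no scaling. The aligner's settings are not given in the sources used here. The sample tags of the pool were not used here, and 0 columns of other samples were present.

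Cells with 200 to 4000 genes and at most 25% mitochondrial UMIs were kept. SCTransform (version 0.4.2) was applied per library with 4000 variable genes, less the members and the acute phase lists, and with the mitochondrial share regressed out. Reciprocal PCA in Seurat 5.3.0 on R 4.3.3 joined the libraries, and cells were clustered on 30 components with 20 neighbours and a seed of 42 at a resolution of 0.8, with monocytes and macrophages clustered again at 0.5. A cluster was named where markers of 1 type scored at least 1 with at least 3 detected in 10% of cells, and was left unnamed below 40 cells, where markers of another type outnumbered its own among the 10 leading genes, or where its cells were shallow and none of these was its marker. These limits were set after the clusters were seen. Scrublet in scanpy 1.11.5 called 8.13% and 1.95% of cells doublets, which were kept except in 1 alternative.

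UMIs were summed over the cells of a class, scaled to CPM, and turned into a log2 ratio after adding 1 UMI. Genes below 100 UMIs over the libraries were left out. Cells were not treated as replicates and no test was made. The ratio step was tested on simulated counts. Free RNA was scaled from 8 hepatocyte genes. The genes named are the members, genes of the lists with at least 100 UMIs, the 5 genes most like Saa1 with Saa2 and the 5 most like Saa3; genes that lead clusters, and list genes under 100 UMIs, were named after their values were seen. Members and lists were chosen with earlier results of these data known. Alternatives included lowering the mitochondrial limit to 10%, lifting the upper limit on genes, classes from each cell's own markers, resolutions of 0.3 and 1.0, doublets taken out, cells of 2000 or more UMIs, thinning, the mean over cells, other scalings, another sort order of genes and free RNA set from Alb. 1 gene of the regulator list is counted but not reported here by name. The depth of the libraries is given with the results.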

Additional observations from a re-analysis of the deposited data

How the results depend on the processing

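With 1 library per diet, no spread between animals could be measured, and the hepatocytes, at medians of 740 and 846 UMIs, gave few UMIs of the Saa genes in the NCD library. No paired analysis was possible because each group has 1 library and no result comes from a test. Saa2 and Saa3 were at least 2-fold higher in 17 of 17 alternatives, 6 of which were chosen after seeing the data, and Saa1 in 16 of 17. The exception for Saa1, with its lowest value, removes cells by their own Saa counts and so does not check the difference. Over these alternatives the log2 ratios ran from 0.67 to 2.11 for Saa1, 2.57 to 3.88 for Saa2, 1.43 to 2.86 for Saa3, -0.44 to 0.38 for Hp, -1.02 to -0.44 for Orm1, -0.34 to 0.42 for Fgb, -0.78 to 0.09 for Hpx, -0.81 to 0.32 for Itih4 and -1.25 to -0.49 for Apcs. Orm1 was past 2-fold lower in 3 and Apcs in 12 of 17. Scaling by the median of gene ratios moved all genes by 0.14.

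The number of members at least 2-fold higher was 3, and 2 without the Saa-rich cells, a filter on the measured counts themselves, beside 6.54% and 6.40% of all genes. The number at least 2-fold lower was 1, but 0 with classes from each cell's own markers, at a resolution of 0.3, with the shallow unnamed cluster counted as hepatocytes and with the shared clusters only, and 2 with cells of 2000 or more UMIs and with scaling by the median. Of all genes, 6.58% were at least 2-fold lower as reported. The share was 5.84%, 6.73%, 6.745% and 6.11% in the 4 settings with 0 members. It was 13.1% with cells of 2000 or more UMIs and 8.88% with scaling by the median. The median over the members was -0.31, and moved to -0.12 with classes from own markers, -0.15 at a resolution of 0.3 and with the shallow cluster, -0.44 with cells of 2000 or more UMIs and with scaling by the median, -0.42 with cells thinned to 2000 UMIs, -0.14 with cells thinned to 500, and 0.38 with the shared clusters only. With the shared clusters only, the other positive acute phase genes at least 2-fold lower went from 6 to 1, and the negative ones from 4 to 1, with 2 in place of 1 at least 2-fold higher. The cause was not tested.

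Saa3 in KCs over the free-RNA level was 9.72 in the NCD library, and 4.71 at a mitochondrial limit of 10% and 5.04 with classes from own markers. In the pool it was 1.83, and 0 at a limit of 10% and with thinned cells, but 16.5 and 14.5 at resolutions of 0.3 and 1.0, where the second clustering was not applied and the class held 44 and 45 UMIs in place of 3.

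The clusters depended on the order in which genes were sorted before normalization, which the locale of the computer sets. Another order gave clusterings with an adjusted Rand index of 0.81, and of the reported hepatocytes 89.6% (NCD) and 76.8% (pool) were so classed again. The log2 ratios of all 9 members stayed within their counting error, as did Saa3 in KCs and Apcs in cholangiocytes. Saa3 in monocytes and MoMFs went from 21.2 to 319 CPM and from 25.6 to 83.0 CPM, with 202 and 374 cells leaving the class and the 13 rich in Prg4 now in it. Without these 13 it stood at 10.5 and 25.3 CPM.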

Other observations

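Further acute phase genes were measured in hepatocytes. The metallothionein genes Mt1 and Mt2, which bind zinc and copper, stood at 176 and 165 CPM and at 49.96 and 89.0 CPM in the NCD library and the pool. The protease inhibitor Serpina3n was 62.8 and 46.2 CPM, beside 55.8 and 72.5 CPM for its neighbour Serpina3m. Fgl1, a fibrinogen-like secreted protein, was 59.3 and 64.4 CPM, and the inter-alpha-trypsin inhibitor heavy chain Itih3 was 81.0 and 75.4 CPM. Among negative acute phase genes, the vitamin D carrier Gc was 3922 and 4064 CPM, the heavy chain Itih2 361 and 459 CPM, Igf1 951 and 548 CPM and Hrg 793 and 461 CPM.

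Lcn2, a positive acute phase gene that neutrophils store, reached 1770 and 1124 CPM in that class, and stood at 115 and 106 CPM in cholangiocytes.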
